A study of Mus musculus with 12 samples.

Results

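Coenzyme Q (ubiquinone) synthesis was followed here through the liver transcripts of 10 genes of the pathway, Pdss1, Pdss2, Coq2, Coq3, Coq4, Coq5, Coq6, Coq7, Coq8a and Coq9. All 10 were found by symbol among the 20143 genes of the deposited table. The genes were chosen by their place in the pathway with their CPM in KO and WT livers already known, so their differences between genotypes are given as a description and carry no p-value. The livers came from 6 Hsd17b13-KO mice, numbered KO 1 to KO 6, and 6 wild-type mice, numbered WT 1 to WT 6, with 1 RNA-seq library per mouse. Mice of both genotypes were 8 to 10 weeks old when they were put on CDAA-HFD, a high-fat diet that lacks choline and induces steatohepatitis, and stayed on it for 12 weeks, and no group on another diet was analysed here. Hsd17b13 encodes a lipid droplet enzyme of hepatocytes. The sources used here do not give strain, sex, litter or the form of the deleted allele.

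Coenzyme Q is the lipid of the mitochondrial inner membrane that carries electrons from complex I, complex II and several other dehydrogenases to complex III, and in its reduced form it is an antioxidant. Pdss1 and Pdss2 together build its long isoprenoid tail, and the prenyltransferase Coq2 joins the tail to 4-hydroxybenzoate, a ring made from tyrosine. The ring is then modified by hydroxylases (Coq6 and Coq7) and methyltransferases (Coq3 on oxygen, Coq5 on carbon). The last steps run in a complex of the matrix face of the inner membrane that also needs Coq4, the lipid-binding protein Coq9 and the kinase-like ATPase Coq8a. The liver makes its own coenzyme Q and shares the early mevalonate steps of the tail with cholesterol synthesis.

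The promoters of the most abundant member, of the member that varied least between mice and of the least abundant member are shown first, as the extremes of level and spread among the members. Each is the stretch of 250 bases before the start of transcription in RefSeq (GRCm38.p6), written 5′ to 3′ on the strand of the gene, with matches to 6 short promoter motifs in capitals. Coq8a is at chr1:180196021-180196270 on the minus strand (the first of 2 RefSeq entries), Coq2 at chr5:100674257-100674506 on the minus strand and Pdss1 at chr2:22895272-22895521 on the plus strand. In GENCODE M21 Coq8a spans 180165238 to 180199602 and Coq2 spans 100654723 to 100675140. By that annotation both windows lie inside the gene, downstream of its 5′ end.
Coq8a: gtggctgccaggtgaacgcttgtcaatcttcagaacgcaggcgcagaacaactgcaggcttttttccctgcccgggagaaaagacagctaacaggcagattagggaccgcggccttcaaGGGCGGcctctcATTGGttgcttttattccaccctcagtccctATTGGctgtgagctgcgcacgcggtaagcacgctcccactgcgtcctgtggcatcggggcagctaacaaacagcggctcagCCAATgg
Coq2: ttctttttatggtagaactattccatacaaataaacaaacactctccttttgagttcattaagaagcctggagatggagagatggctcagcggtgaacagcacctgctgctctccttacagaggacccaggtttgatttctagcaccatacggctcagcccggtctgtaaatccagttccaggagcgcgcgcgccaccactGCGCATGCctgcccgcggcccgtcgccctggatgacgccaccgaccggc
Pdss1: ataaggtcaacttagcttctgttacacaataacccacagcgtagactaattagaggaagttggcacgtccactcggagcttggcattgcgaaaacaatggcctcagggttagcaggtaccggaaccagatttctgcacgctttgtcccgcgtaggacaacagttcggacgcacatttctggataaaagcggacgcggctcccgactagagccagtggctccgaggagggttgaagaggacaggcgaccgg

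Each motif was searched on both strands as fixed letters. Of the 10 members, 9 had an entry and Coq5 had none, and the first of 2 entries was used for Coq3 and Coq8a. By GENCODE M21 the Coq6 window also lies inside its gene, and the Coq9 window does so in part. The Coq2 promoter held 1 NRF1 core (letters GCGCATGC), a match found in 2.26% of 32851 RefSeq promoters of the same length and in no other member. The Coq8a promoter held 3 CCAAT boxes and 1 GC box. Boxes with the letters CCAAT were found in 3 members (Coq6, Coq7 and Coq8a) and in 33.8% of all promoters. GC boxes (letters GGGCGG) were found in 4 members (Coq6, Coq8a, Coq9 and Pdss2) and in 32.7% of all promoters, and in Coq6 the GC box overlaps a CCAAT box. The E-box with letters CACGTG was found in Coq4 and in 6.02% of all promoters. The ETS core with letters CCGGAAG was found in Pdss2 and in 6.91% of all promoters. The TATA box with letters TATAAA was found in 0 members and in 12.4% of all promoters. The Pdss1 and Coq3 windows held none of these letters. A match is a description of the sequence and not a binding site.

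The values are CPM, read counts divided so that a library adds up to 1000000. By an estimate of depth from the values, 1 CPM stood for 46.31 (KO 2) to 77.9 counts (WT 2), so counts and counting errors given below are estimates. Hsd17b13 itself was at 0.956 to 1.40 CPM in the 6 KO livers, against 315 to 393 CPM in the 6 WT livers, so every library followed its label. Differences are KO minus WT on the log2(CPM + 1) scale, which understates the change of low genes, and a gene was called where limma's two-sided test gave a Benjamini-Hochberg adjusted p under 0.05 over the 9186 genes whose mean reached 10 CPM. Of these, 14 were called (0.152%), 10 higher in KO (0.109%) and 4 lower in KO (0.0435%). KO 1 and KO 3 stood apart from the other KO livers in transcripts of Rplp0 and Pebp1, as described further on. The labels do not say whether mice shared a litter or a cage, so every p measures the spread between these mice. In whole liver, fewer cells of a type and less RNA per cell cannot be told apart.

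Of the 10 coenzyme Q genes, Coq5 stood out, with 1.47 times as much transcript in KO livers as in WT livers, and the other 9 overlapped between the genotypes. Of the 8 members that reached 10 CPM, Coq5 was called higher, 0 were called lower and 7 were not called. The matching share of all tested genes called higher was 0.109%, and because this contrast was known when the genes were proposed, nothing is read from the count. The differences of the 7 uncalled genes ran from -0.13 to 0.10. The median difference of the 8 was 0.05, beside -0.01 over all tested genes, and 5 of the 8 were positive.

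**Figure D1:**
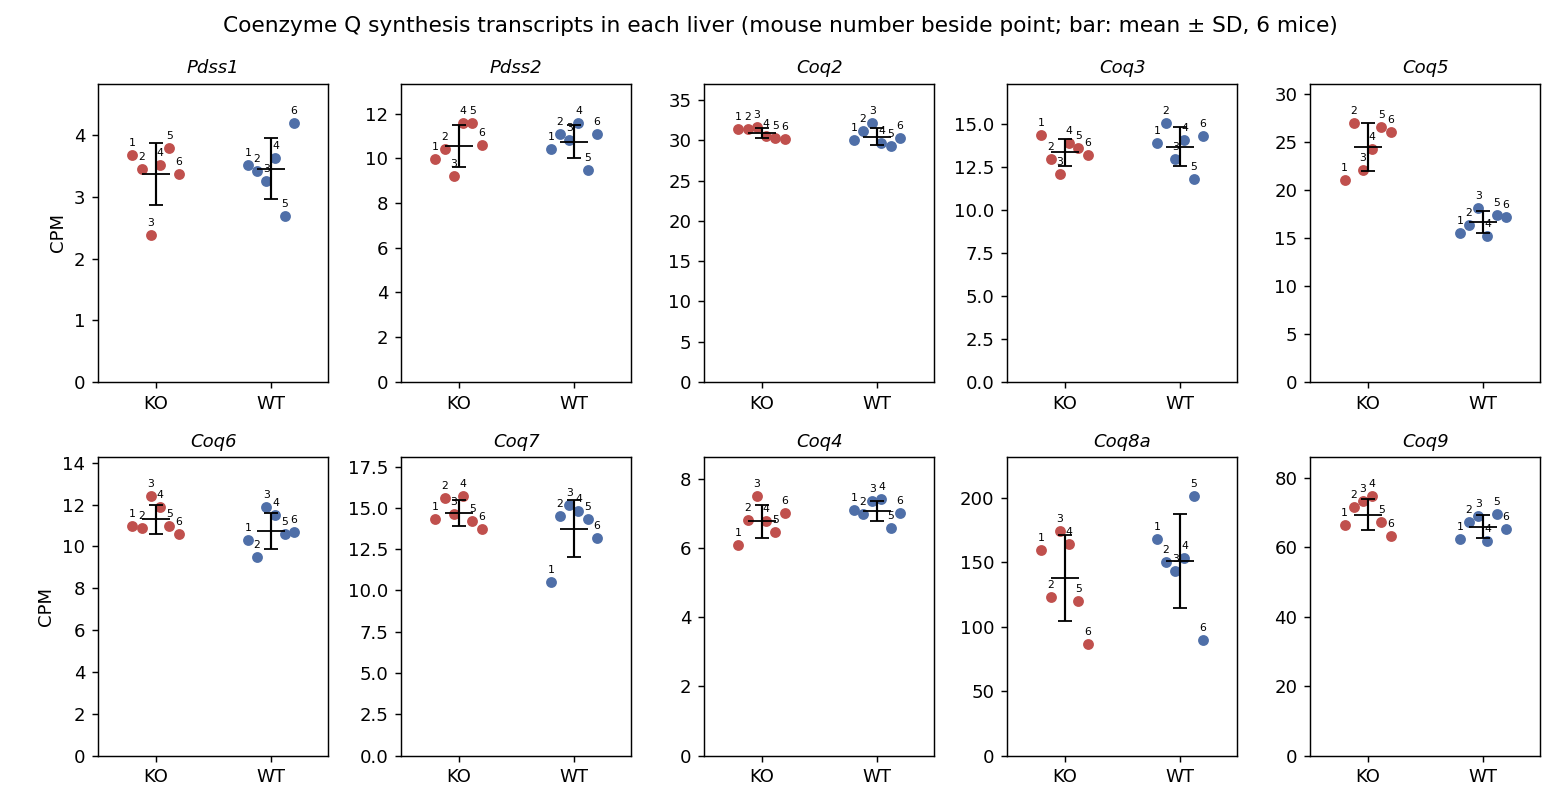
Transcript level of each coenzyme Q gene in CPM (vertical axis, from 0) in the 6 KO livers (red, left) and the 6 WT livers (blue, right), with the mouse number beside each point and the mean ± SD as a bar. The groups separate in the Coq5 panel, where KO livers lie at 21.0 to 27.0 CPM and WT livers at 15.2 to 18.1 CPM, and overlap in the other 9 panels.

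The tail-making enzymes were the least abundant members per base of transcript. Pdss1 was at 3.69, 3.46, 2.39, 3.52, 3.79 and 3.37 CPM in KO 1 to KO 6, against 3.52, 3.43, 3.26, 3.63, 2.69 and 4.21 CPM in WT 1 to WT 6. The groups overlap, and KO 3 and WT 5 are the lowest of their groups. The difference was -0.03 (SE 0.10, 95% interval -0.25 to 0.19), taken from the fit of all genes because Pdss1 lay under the 10 CPM minimum. Pdss2, its partner subunit, had a lowest, median and highest value of 9.22, 10.5 and 11.6 CPM in KO livers, against 9.47, 11.0 and 11.6 CPM in WT livers. The groups cover nearly the same range, with a difference of -0.02 (SE 0.07, 95% interval -0.17 to 0.13). KO 3 and WT 5 are again the lowest of their groups.

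Coq2, which joins tail and ring, was the steadiest member. It was at 31.4, 31.4, 31.6, 30.5, 30.3 and 30.2 CPM in KO 1 to KO 6, against 30.0, 31.2, 32.2, 29.7, 29.3 and 30.3 CPM in WT 1 to WT 6. All KO values fall inside the WT range. The difference was 0.02 (SE 0.04, 95% interval -0.07 to 0.11). Its mean was 30.9 ± 0.618 CPM in KO livers and 30.4 ± 1.07 CPM in WT livers (SD, n = 6 each), where counting alone gives an error of 2.03% to 2.62% per library. Only 0.207% of tested genes had a smaller SD within genotypes on the log2 scale (0.040 for Coq2, against a median of 0.135 over all tested genes).

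Among the enzymes that modify the ring, the methyltransferases behaved differently from each other. Coq5, the C-methyltransferase, was at 21.0, 27.0, 22.1, 24.2, 26.5 and 26.0 CPM in KO 1 to KO 6, against 15.5, 16.3, 18.1, 15.2, 17.4 and 17.2 CPM in WT 1 to WT 6. Every KO liver lies above every WT liver, a separation seen in that direction in 0.359% of tested genes and in either direction in 0.893%, and KO 1 and KO 3 are the lowest KO livers. The means were 24.5 ± 2.49 CPM in KO livers and 16.6 ± 1.13 CPM in WT livers (SD, n = 6 each), on 874 to 1692 counts per library. The log2 difference was 0.53 (SE 0.07), and its 95% interval of 0.37 to 0.68 stands for 1.30 to 1.60 times the WT level on the log2(CPM + 1) scale. Coq3, the O-methyltransferase, had a lowest, median and highest value of 12.1, 13.4 and 14.4 CPM in KO livers, against 11.8, 14.0 and 15.1 CPM in WT livers. These ranges overlap nearly in full, with a difference of -0.03 (SE 0.06, 95% interval -0.17 to 0.11).

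The hydroxylases overlapped between the genotypes. Coq6 had a lowest, median and highest value of 10.6, 11.0 and 12.4 CPM in KO livers, against 9.50, 10.7 and 11.9 CPM in WT livers, a difference of 0.07 (SE 0.06, 95% interval -0.07 to 0.21). Coq7 had 13.7, 14.5 and 15.7 CPM in KO livers, against 10.5, 14.4 and 15.2 CPM in WT livers. The medians of Coq7 nearly coincide, and its lowest value belongs to WT 1, with the other WT livers at 13.2 CPM or more. The Coq7 difference was 0.10 (SE 0.08, 95% interval -0.08 to 0.27). Coq9, which presents the substrate to Coq7, had 63.3, 69.4 and 74.7 CPM in KO livers, against 61.8, 66.3 and 69.6 CPM in WT livers. Of the KO livers 3 lie above all WT livers, and the difference was 0.07 (SE 0.05, 95% interval -0.04 to 0.19).

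Coq8a, the ATPase of the complex, was the most abundant member and the most variable one. It was at 159, 123, 174, 164, 120 and 86.6 CPM in KO 1 to KO 6, against 168, 150, 143, 153, 201 and 89.9 CPM in WT 1 to WT 6. The lowest value of each group belongs to its mouse 6, and the groups overlap. The difference was -0.13 with an SE of 0.19, and the 95% interval of -0.54 to 0.28 is the widest among the members. The SD within genotypes was larger than that of 96.6% of tested genes, on 5000 to 13312 counts per library with a counting error of at most 1.41%. Coq4, needed to hold the complex together, had a lowest, median and highest value of 6.09, 6.79 and 7.50 CPM in KO livers, against 6.59, 7.06 and 7.41 CPM in WT livers. Its groups overlap, and the difference in the fit of all genes was -0.06 (SE 0.07, 95% interval -0.20 to 0.09).

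**Figure D2:**
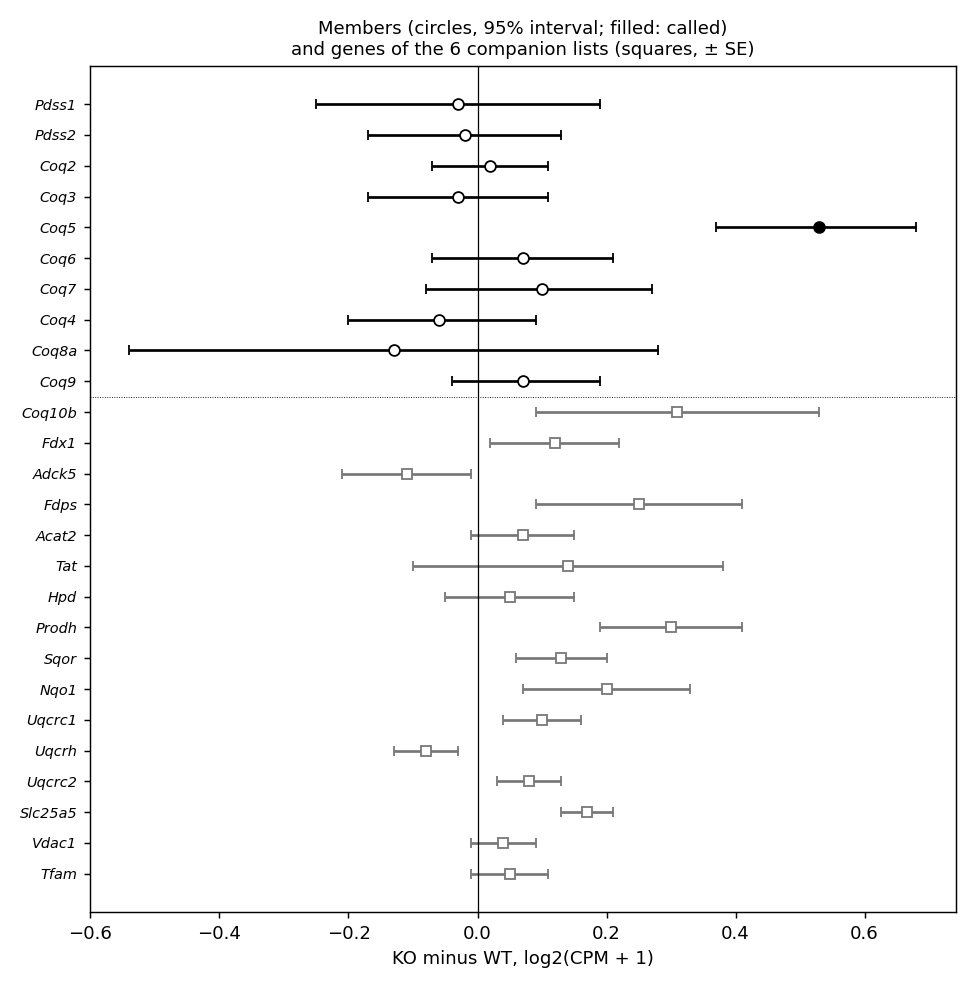
Difference in log2(CPM + 1), KO minus WT (horizontal axis), of the 10 coenzyme Q genes (circles with 95% intervals, the filled one called) above genes of companion pathways (squares with ± 1 SE). The interval of Coq5, 0.37 to 0.68, lies to the right of 0, those of the other members include 0, and the widest is that of Coq8a.

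To compare levels between genes, CPM was divided by the total exon length of each gene in kilobases. In KO livers Coq8a was at 26.0 ± 6.32 CPM per kb and Coq9 at 22.7 ± 1.44, followed by Coq2 at 11.8 ± 0.236 and Coq5 at 8.06 ± 0.822 (SD, n = 6). In WT livers Coq8a was at 28.5 ± 6.88 CPM per kb, Coq9 at 21.6 ± 1.08, Coq2 at 11.6 ± 0.409 and Coq5 at 5.48 ± 0.371 (SD, n = 6). Coq5 therefore held the same rank in both genotypes, and Coq8a and Coq9 overlap within 1 SD in both. The lower ranks had the same order in both genotypes. Coq3 (4.46 ± 0.266 CPM per kb in KO livers and 4.57 ± 0.384 in WT livers) and Coq6 (3.60 ± 0.215 in KO livers and 3.42 ± 0.272 in WT livers) came next. Coq7 (2.28 ± 0.124 CPM per kb in KO livers and 2.14 ± 0.270 in WT livers), Coq4 (1.99 ± 0.142 in KO livers and 2.08 ± 0.0866 in WT livers) and Pdss2 (1.77 ± 0.156 in KO livers and 1.80 ± 0.125 in WT livers) were close. Coq7 and Coq4 overlap within 1 SD in WT livers, and Coq4 and Pdss2 do so in KO livers. Pdss1 was last at 0.793 ± 0.119 CPM per kb in KO livers and 0.814 ± 0.116 in WT livers.

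All 10 members are protein coding, and 2 of them, Coq2 and Coq5, share chromosome 5 with Hsd17b13 (mm10, 103955440 to 103977410). Coq2 (ENSMUSG00000029319) spans 100654723 to 100675140 on the minus strand, 3.28 Mb from Hsd17b13. Coq5 (ENSMUSG00000041733) spans 115279666 to 115296972 on the plus strand, 11.3 Mb from Hsd17b13 on the other side. The genotypes overlap at the nearer gene, Coq2, and separate at the farther one, Coq5. Of the 14 calls over all genes, Gpat3, Hsd17b13, Gbp11, Rplp0 and Pebp1 also lie on chromosome 5. The starts of these called genes run from -14.434 Mb (Gpat3) to 2.003 Mb (Pebp1) from the start of Coq5. Whether the Coq5 difference goes with the loss of Hsd17b13 or with the chromosome 5 segment carried by these mice cannot be told apart in this design.

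Around Coq5, 19 protein-coding genes within 0.5 Mb were tested, with a median difference of 0.05. The nearest, the dynein light chain Dynll1, lies 0.138 kb away and was at 24.5 ± 3.86 CPM in KO livers and 24.6 ± 1.56 CPM in WT livers (log2 difference -0.02, SE 0.09). On the other side the ubiquitin ligase Rnf10, 6.77 kb away, was at 166 ± 14.7 CPM in KO livers and 156 ± 12.0 CPM in WT livers (log2 difference 0.08, SE 0.07). Neither was called by limma (adjusted p = 0.973 for Dynll1 and 0.777 for Rnf10). Of the 19 genes 1 was called, Rplp0, a ribosomal stalk protein 262 kb away, and it was lower: 172 ± 65.5 CPM in KO livers against 350 ± 14.0 CPM in WT livers (log2 difference -1.10, SE 0.18, limma adjusted p = 0.0285). Its processed pseudogene copy Gm8730 went the other way, at 117 to 206 CPM in KO livers against 25.6 to 30.9 CPM in WT livers. The Rplp0 value alone therefore does not give the change of the pair. Leaving out 1 mouse at a time kept the Rplp0 call in 2 of 12 fits, those without KO 1 or KO 3, and the largest adjusted p was 0.0908. Of all tested genes limma called 0.152%, 9.80% had an unadjusted p under 0.05, and nothing is read from the counts among the 19. A further 2 of the 19 had an unadjusted p under 0.05 and were not called. They were Gatc, a subunit of the mitochondrial glutaminyl-tRNA amidotransferase (17.5 ± 1.36 CPM in KO livers and 15.1 ± 0.858 CPM in WT livers, limma adjusted p = 0.223), and Acads, the short-chain acyl-CoA dehydrogenase (144 ± 6.63 CPM in KO livers and 130 ± 8.20 CPM in WT livers, limma adjusted p = 0.302).

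Around Coq2, 6 protein-coding genes were tested within 0.5 Mb, with a median difference of -0.00. Of these limma called 1, and 2 had an unadjusted p under 0.05, beside 0.152% and 9.80% of all tested genes. Nothing is read from counts this small. The heparanase gene Hpse, 4.34 kb away, was at 16.2 ± 1.44 CPM in KO livers and 17.0 ± 3.53 CPM in WT livers (log2 difference -0.04). Gpat3, an acyltransferase of triglyceride synthesis 171 kb away, was called higher, at 42.3 ± 3.80 CPM in KO livers and 26.6 ± 4.47 CPM in WT livers (log2 difference 0.66, SE 0.10, limma adjusted p = 0.0133). Plac8, 82.5 kb away, had an unadjusted p of 0.0186 in limma and was not called (21.7 ± 4.97 CPM in KO livers and 16.0 ± 3.15 CPM in WT livers, adjusted p = 0.342). Gpat3 was called in 11 of 12 fits that left out 1 mouse, the exception being WT 3 (adjusted p = 0.0524).

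**Figure D3:**
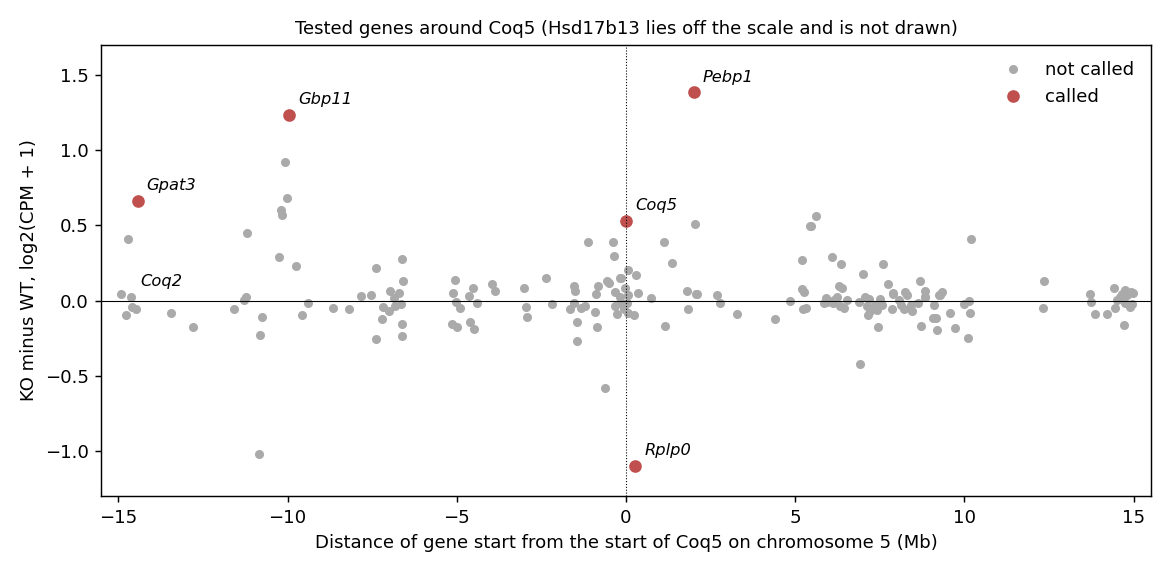
Difference in log2(CPM + 1), KO minus WT (vertical axis), of tested genes by distance of their start from that of Coq5 in Mb on chromosome 5 (horizontal axis), with called genes in red. Coq5 at 0.53 has close neighbours near 0, while Rplp0 and Gpat3, the called genes nearest to Coq5 and Coq2, lie at -1.10 and 0.66. Gm8730, the copy of Rplp0 on chromosome 8, is not drawn.

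Rplp0, Gm8730 and Pebp1 were looked at because an earlier account of these data had shown them to split the KO livers. Their split is therefore a description, and it does not stand for the other genes near Coq5. Gm8730, a processed pseudogene copy of Rplp0 on chromosome 8, took 31.4% of the summed Rplp0 and Gm8730 CPM in KO 1 and 31.6% in KO 3. It took 59.7% to 60.9% in KO 2, KO 4, KO 5 and KO 6, and 7.09% to 8.19% in the WT livers. Pebp1, a Raf kinase inhibitor gene on chromosome 5, was at 195 CPM in KO 1 and 214 CPM in KO 3, at 288 to 308 CPM in the other KO livers and at 92.4 to 110 CPM in WT livers. Coq5 followed the same order, with 21.0 CPM in KO 1, 22.1 CPM in KO 3 and 24.2 to 27.0 CPM in the other KO livers. KO 3 and KO 1 were also the most deeply counted KO libraries, at 76.63 and 67.11 counts per CPM, against 46.31 to 57.73 in the other KO libraries. The deepest WT libraries were WT 2 and WT 6, at 77.9 and 67.7 counts per CPM. Their Coq5 was at 16.3 and 17.2 CPM, their Gm8730 share 7.61% and 7.50% and their Pebp1 at 95.9 and 94.7 CPM, inside the ranges of the other WT livers. The part of depth in these values was not tested. Coq2 did not follow this order, and the ratio of Coq5 to Coq2 was 0.668 in KO 1 and 0.699 in KO 3, 0.792 to 0.874 in the other KO livers and 0.513 to 0.594 in WT livers.

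**Figure D4:**
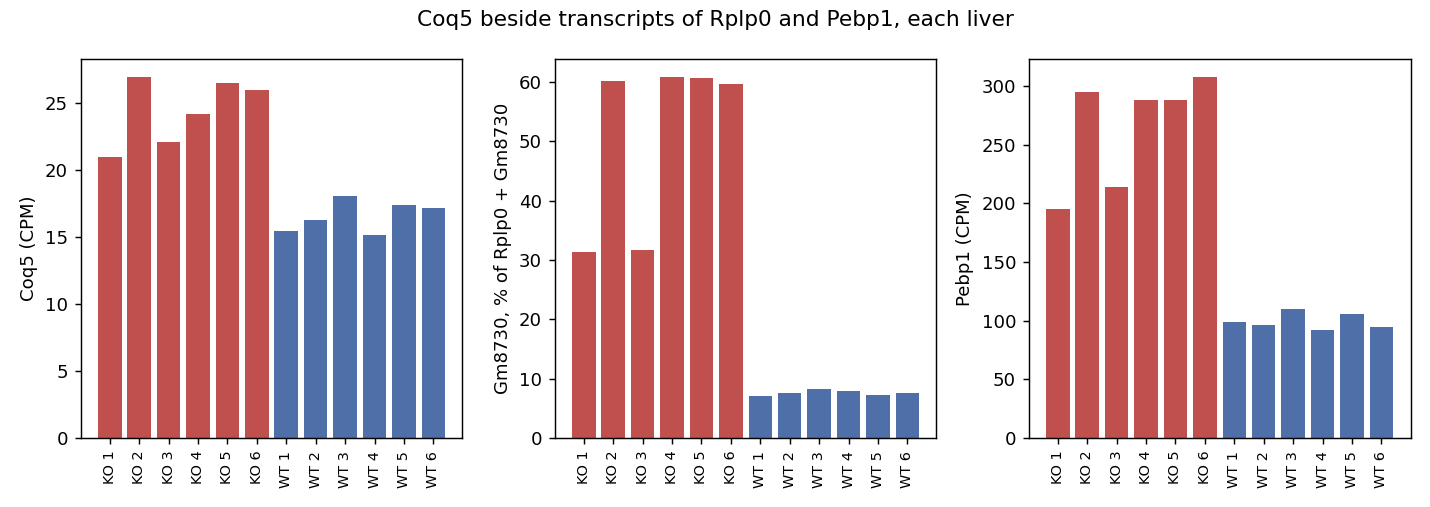
Coq5 in CPM, Gm8730 as a percent of the summed Rplp0 and Gm8730 CPM, and Pebp1 in CPM (vertical axes, from 0) in each of the 6 KO livers (red) and 6 WT livers (blue). KO 1 and KO 3 lie between the other KO livers and the WT livers in all 3 panels, at 21.0 and 22.1 CPM for Coq5.

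Leaving KO 1 and KO 3 out together, a choice made after seeing the data, moved the Coq5 difference to 0.61, beside 0.53 with all mice. KO 1 and KO 3 are the lowest KO livers in Coq5, so a larger difference had to follow. The other 7 tested members ranged from -0.28 (Coq8a) to 0.10 (Coq7) and were not called. Of the neighbours, Gpat3 (log2 difference 0.64, limma adjusted p = 0.0338) was called. KO 1 and KO 3 had been set apart by Rplp0 itself, so its difference of -1.42 in this fit is a description. The count over all genes went to 90 of 9216 tested (0.977%), against 14 with all mice. Without either mouse alone the Coq5 difference was 0.57 (KO 1) and 0.55 (KO 3).

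Genes that share sequence with a member can shift its value. Coq5 shares no exon with another measured gene and has no transcript copy of at least 95% identity over 200 bases. For 6 members an exon overlaps that of another measured gene (Coq4 with Trub2, Coq6 with Fam161b, Coq8a with Cdc42bpa, Coq9 with Ciapin1, Pdss1 with Abi1 and Pdss2 with Gm47856). Trub2, Cdc42bpa, Ciapin1 and Abi1 were tested by limma and not called, and Fam161b and Gm47856 lay under 10 CPM. The sources used here do not state whether counting used the strand, so reads in those overlaps are uncertain. The largest such partner was Cdc42bpa, a kinase gene at 74.0 ± 5.22 CPM in KO livers and 81.0 ± 6.59 CPM in WT livers, with 366 shared bases. Coq2 has a copy, Gm6728 on chromosome 6 (96.521% identical over 1006 bases), which was at 0.713 ± 0.129 CPM in KO livers and 0.909 ± 0.106 CPM in WT livers. Pdss1 shares 215 bases at 96.279% identity with A130006I12Rik, which is not among the measured genes.

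Genes that serve the pathway without making the ring or tail were compared through 6 lists, none of which holds a member. Of their 56 tested genes, 0 were called by limma in either direction, and 2 (3.57%) had an unadjusted p under 0.05, where 9.80% of all tested genes did. Their median difference was 0.04, beside -0.01 over all tested genes, and the lowest adjusted p was 0.158. With KO 1 and KO 3 left out 1 of them was called, Prodh, in a fit that called 0.977% of all tested genes. KO 1 and KO 3 are the lowest KO livers in Prodh, so nothing is read from that call.

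Companions of coenzyme Q handling (Coq8b, Coq10a, Coq10b, the Adck kinases and the ferredoxins that feed Coq6) had 8 tested genes, 6 of them positive, with a median of 0.03. Coq10b, a lipid-binding partner of coenzyme Q in the membrane, averaged 26.4 CPM in KO livers and 21.5 CPM in WT livers (log2 difference 0.31, SE 0.22, limma adjusted p = 0.728). Its values ran from 16.9 to 36.7 CPM in KO livers and from 13.5 to 32.6 CPM in WT livers, so the groups overlap widely. Fdx1 was at 55.3 ± 8.68 CPM in KO livers and 50.6 ± 4.65 CPM in WT livers (log2 difference 0.12, limma adjusted p = 0.774). Adck5, a kinase-like relative of Coq8a, was at 20.8 ± 3.49 CPM in KO livers and 22.4 ± 2.15 CPM in WT livers (log2 difference -0.11, limma adjusted p = 0.807).

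The supply of tail and ring precursors was also without a call. All 9 genes of the mevalonate route to farnesyl and geranylgeranyl diphosphate were tested, 7 were positive and the median was 0.08. Fdps, which makes farnesyl diphosphate, was at 76.4 to 128 CPM in KO livers and 63.6 to 127 CPM in WT livers (log2 difference 0.25, SE 0.16, limma adjusted p = 0.689). Acat2, at the start of the route, was at 47.0 ± 4.48 CPM in KO livers and 44.8 ± 4.99 CPM in WT livers (log2 difference 0.07, limma adjusted p = 0.863). Both genes overlap between the genotypes. The ring precursor list had 3 tested genes, all of them positive, with a median of 0.14. Tat, tyrosine aminotransferase, was at 414 to 993 CPM in KO livers and 367 to 892 CPM in WT livers, and Hpd, which draws the same precursor into tyrosine breakdown, was at 526 ± 60.0 CPM in KO livers and 509 ± 72.3 CPM in WT livers. These ranges overlap, and neither was called.

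The enzymes that use coenzyme Q showed small differences within the spread of the mice. Among 13 tested dehydrogenases and reductases that pass electrons to it, 10 were positive and the median was 0.07. Prodh, proline dehydrogenase, had the smallest p of these, at 80.9 ± 13.7 CPM in KO livers and 65.0 ± 7.34 CPM in WT livers (log2 difference 0.30, SE 0.11, limma adjusted p = 0.328). Its difference was 0.44 (SE 0.09, limma adjusted p = 0.0432) with KO 1 and KO 3 left out. These mice, at 60.0 and 71.4 CPM, are the lowest KO livers in Prodh, so a larger difference had to follow. Sqor, which oxidises sulfide, was at 99.4 ± 9.15 CPM in KO livers and 90.6 ± 7.53 CPM in WT livers (limma adjusted p = 0.604). The 10 complex III genes had a median of 0.04, from -0.08 (Uqcrh) to 0.10 (Uqcrc1). Uqcrc1, a core subunit, was at 173 ± 11.8 CPM in KO livers and 162 ± 10.3 CPM in WT livers (limma adjusted p = 0.657). Of 13 genes taken as a gauge of mitochondrial content, 10 were positive with a median of 0.01, and the ADP/ATP carrier Slc25a5 was at 326 ± 10.6 CPM in KO livers and 289 ± 9.55 CPM in WT livers (log2 difference 0.17, SE 0.04, limma adjusted p = 0.158).

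The liver label was checked with markers of its cell types. Of 33 tested markers limma called 0, and 11 (33.3%) had an unadjusted p under 0.05, where 9.80% of all tested genes did. These were 4 of 7 stellate cell markers, 4 of 7 Kupffer cell and macrophage markers, 2 of 2 cholangiocyte markers, 1 of 6 endothelial markers and 0 of 11 hepatocyte markers. The 11 hepatocyte markers measured summed to 79235 to 95306 CPM in KO livers and 77500 to 99970 CPM in WT livers, and none was at 0 in any library. Kupffer cell and macrophage markers summed to 1039 to 1419 CPM in KO livers and 1197 to 1607 CPM in WT livers, a sum of which Lyz2 is the largest part (536 CPM in KO livers and 810.3 CPM in WT livers, log2 difference -0.59). Of the 7 tested markers of that list 5 were positive, among them the Kupffer cell genes Clec4f (0.59) and Cd5l (0.50), so most single differences run against the sum. Stellate cell markers summed to 966 to 1225 CPM in KO livers and 1099 to 1618 CPM in WT livers, with positive differences in 3 of the 7 tested, such as Lrat (0.44), and negative ones in the others, such as Pdgfrb (-0.44). Cholangiocyte markers summed to 155 to 322 CPM in KO livers and 263 to 779 CPM in WT livers. Of these 6 markers only Sox9 and Spp1 reached a mean of 10 CPM. Sox9 averaged 20.3 CPM in KO livers and 34.2 CPM in WT livers, so the sum is mostly Spp1 (log2 difference -1.02). Spp1 lies on chromosome 5, with its start -10.845 Mb from that of Coq5, beside -11.324 Mb for Hsd17b13. Endothelial markers summed to 316 to 445 CPM in KO livers and 336 to 408 CPM in WT livers, and lymphocyte markers to 9.02 to 11.3 CPM in KO livers and 6.60 to 13.3 CPM in WT livers. The cholangiocyte ranges overlap least, in a sum that is mostly 1 gene. The part of the marked cell types in the values of the members was not tested.

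Whether the members varied together from mouse to mouse was examined after each genotype's mean had been subtracted, which removes the KO and WT difference. Over 45 pairs and 12 mice, 0 correlations passed an adjusted p of 0.05 in a two-sided permutation test within genotype, 5 had an unadjusted p under 0.05, and the median Pearson r was 0.01, with 25 pairs positive. The highest r was that of Coq3 and Pdss1, at 0.79 (permutation p = 0.00538, adjusted p = 0.178), with a Spearman rho of 0.66 (permutation p = 0.0311, adjusted p = 0.615). It was 0.86 among KO livers and 0.78 among WT livers, but 0.38 without the 2 mice farthest from the median, so the relation rests on those mice. The tail subunits Pdss1 and Pdss2 had an r of 0.75 (permutation p = 0.00792, adjusted p = 0.178) and a rho of 0.61 (permutation p = 0.0432, adjusted p = 0.615), and an r of 0.20 without 2 mice. KO 3 and WT 5 were the lowest of their groups in Pdss1, Pdss2 and Coq3 alike. Coq5 had r values from -0.51 (with Coq8a) to 0.28 (with Pdss2) with the other 9 members. The largest negative r was that of Coq8a and Pdss1, at -0.60 (permutation p = 0.0494, adjusted p = 0.444).

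**Figure D5:**
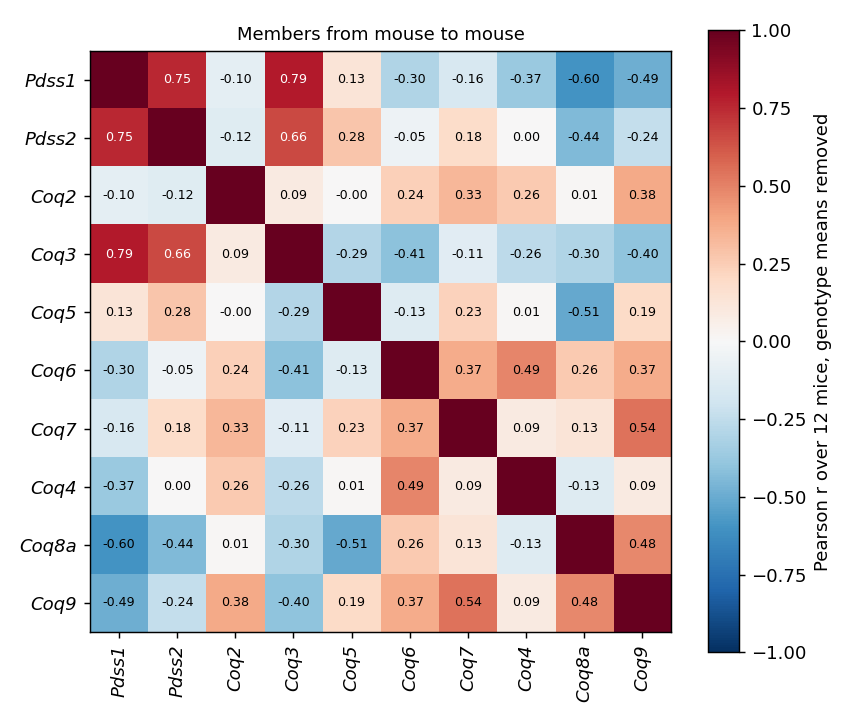
Pearson r between the log2(CPM + 1) values of each pair of coenzyme Q genes over 12 mice with genotype means removed (colour and number, from -1 in blue to 1 in red). The strongest squares join Pdss1, Pdss2 and Coq3 (0.66 to 0.79), and the Coq5 row runs from -0.51 to 0.28.

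The mean of the 8 tested members was also set against lists of other genes over the 12 mice with genotype means removed, with p adjusted over the 3 relations. Pearson r with the complex III genes was 0.58 (permutation p = 0.0609, adjusted p = 0.183) and Spearman rho was 0.55 (permutation p = 0.0756, adjusted p = 0.227). That r was 0.76 among KO livers and 0.35 among WT livers, and 0.24 without the 2 mice farthest from the median. Pearson r was 0.18 with the hepatocyte markers (permutation p = 0.567, adjusted p = 0.567; rho 0.22, permutation p = 0.512, adjusted p = 0.767) and 0.22 with the mitochondrial content genes (permutation p = 0.555, adjusted p = 0.567; rho 0.03, permutation p = 0.929, adjusted p = 0.929). Without 2 mice these were 0.10 and 0.56. The relations depend on scaling: with median-of-ratios scaling r was 0.86 for complex III, 0.74 for mitochondrial content and 0.70 for hepatocyte markers (adjusted permutation p = 0.00471, 0.0148 and 0.0148).

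The transcripts whose values were most like those of Coq5 over the 12 mice were picked as the 5 highest of 9186 Pearson correlations, so r is a description. As measured they were Pebp1 (0.98), Gm9824 (0.98), Gm10819 (0.97), Gm9625 (0.97) and Gm8730 (0.96). With genotype means removed they were Acaca (0.97), Gm5182 (0.95), Cfb (0.94), Acly (0.92) and Pcx (0.91). Acaca and Acly are enzymes of fatty acid synthesis, Pcx is pyruvate carboxylase and Cfb is complement factor B. The points share the library, so depth and composition enter all of these values.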

How the data were processed

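The members, the companion lists and the tests were chosen with earlier results of these data known. Liver RNA was purified, per the labels' protocols, with TRIzol and RNeasy columns, depleted of rRNA and globin RNA and made into directional libraries, while the molecule label says polyA. The submitters' processing notes name mm10, Partek 10.0, STAR 2.7.3a and DESeq2 1.14.1 without roles, and the sources used here name no counting tool, annotation or strand setting. A single table was deposited by the authors, holding CPM values (each column sums to 1000000) for 20143 genes in 12 libraries, of which 20055 were matched to GENCODE M21 and 88, holding 9.59% of the CPM, were not.

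Depth was read from the smallest step of each column. Only 70.79% to 74.85% of low values lay within 0.02 of a whole number of counts (4% by even spread), so the values could not be turned back into reads and a count test was left out. Counts given per library are CPM multiplied by this depth and rounded, so they are estimates. Counting errors rest on them and cover counting only. The genotypes were compared with limma 3.58.1 in R 4.3.3 (moderated by empirical Bayes, mean trend) on log2(CPM + 1) for the 9186 genes whose mean reached 10 CPM, with Benjamini-Hochberg adjustment over all of them. The design had assumed normalized counts, and the same log-scale test was used for CPM. The step was tested on simulated data. Correlations used 100000 permutations of mice within genotype (Python 3.11.15, SciPy 1.17.1), copies were sought with BLASTN 2.17.0, and promoters come from RefSeq.

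Genes named beyond the members are Hsd17b13, up to 3 genes with the smallest p per companion list, protein-coding neighbours within 0.5 Mb of Coq2 or Coq5, the 5 most like Coq5, and Rplp0, Pebp1 and Gm8730. The last 3 had split the KO mice in an earlier account of these data. Of the genes so named, 2 are not reported here. Alternatives were pseudocounts of 0.5 and 10, quantile and median-of-ratios scaling, no filter or a mean of at least 1 CPM, no trend, array weights, a block by mouse number, and leaving out mice. The mouse numbers do not pair the mice, as the closing section describes.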

Additional observations from a re-analysis of the deposited data

Results flagged for a closer look

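Among 22 groups of 6 mice examined, 1 held a mouse far from the others. Pdss1 was at 2.39 CPM in KO 3, while the other KO livers were at 3.37 to 3.79 CPM, so the gap took 0.706 of the whole range, more than Dixon's 95% critical value for 6 mice allows. Chance flags about 1 in 20 such groups. The same mouse was the lowest KO liver for Pdss2 (9.22 CPM) and Coq3 (12.1 CPM).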

How the results depend on the processing

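Coq5 was called higher in KO in all 22 alternatives, with log2 differences of 0.37 (pseudocount of 10) to 0.61 (KO 1 and KO 3 left out), and no other member was called in any of them. The alternatives reuse the same libraries, so they describe the dependence on processing and are no further support. KO 1 and KO 3 are the lowest KO livers in Coq5. Pdss2 ranged from -0.06 to 0.04 and so changed sign, while Coq8a stayed between -0.28 and -0.01. The count of calls over all genes was 14, against 29 with no filter, 31 at a mean of at least 1 CPM, 35 with array weights, 9 (without WT 3) to 25 (without KO 3) with 1 mouse left out, and 90 with KO 1 and KO 3 left out. Companion genes called were 0, and 1 (Prodh) with KO 1 and KO 3 left out, which are also the lowest KO livers in Prodh. The mean of the members reached an r of 0.67 with hepatocyte markers and 0.77 with complex III after quantile normalization, and of 0.70, 0.74 (mitochondrial content) and 0.86 (complex III) with median-of-ratios scaling. The cause was not tested. With 1 mouse left out these r ran from 0.04 to 0.29 for hepatocyte markers, -0.11 to 0.62 for mitochondrial content and 0.39 to 0.70 for complex III, and 0 to 1 of the 45 pairs passed (1 without WT 2 and 1 without WT 4). The smallest counts, 160 to 285 per library for Pdss1, leave a counting error of up to 7.90%.

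The labels number the mice 1 to 6 in each genotype. Deviations of same-numbered mice correlated at -0.514 to 0.388 and no mouse correlated best with its own number, so the numbers were not taken as pairs. With a replicate block by number, 11 genes were called over all genes and the Coq5 difference was 0.53.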

Other observations

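Other members than Coq5 also had transcripts that resembled them from mouse to mouse. The genes named here were picked after their values were seen, as the most extreme of 9186 correlations over 12 mice with genotype means removed, so each r is a description. Coq9 was most like Echdc3 (0.93), the complex I subunits Ndufa9 (0.92) and Ndufv1 (0.91), the ATP synthase subunit Atp5b (0.89) and the mitochondrial selenoprotein Selenoo (0.89). Coq8a, the member with the widest spread, was most like Enpp3 (0.90) and Kif1b (0.90) apart from Rnf125 (0.92). Its most negative values were with the tetraspanin Tspan4 (-0.93), the endothelial lipase Lipg (-0.93), the acute phase proteins Hp (-0.91) and Orm2 (-0.91) and the activin subunit Inhbe (-0.91).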
